A study of Homo sapiens with 26 samples.

Results

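The enzymes of mitochondrial fatty acid oxidation were followed as a set of 10 genes, chosen by function: CPT1A, CPT2, ACADVL, ACADL, ACADM, ACADSB, HADHA, HADHB, HADH and ACAA2. All 10 were among the 60663 genes of the RNA-seq tables, and 9 of the 10 had an entry of their own among the 57770 single-gene entries of the ribosome profiling tables. ACAA2 was listed there only within an entry of several genes, so its footprints were not analysed here. The measurement was LOCL-TL, in which ribosomes close to a chosen membrane are biotinylated under blue light, isolated on streptavidin and compared with the total input of the same lysate.

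All samples were HEK293T cells, a human embryonic kidney line, and all carried the Avi tag, the substrate of the biotin ligase BirA, on both copies of endogenous RPL29 in a line derived from 1 clone. In the ribosome profiling series a light-activated ligase, LOV-BirA, was placed at the ER (fused to Sec61β), at the outer mitochondrial membrane (OMM; fused to the transmembrane domain of OMP25, the location the labels call mitochondrial) or in the cytosol, with 2 replicates of a total input and a pulldown at each, 12 libraries in all. In the RNA-seq series, 14 libraries in all, intact mRNA was pulled down with ribosomes labeled at the OMM. The cells were wild type (WT) with a negative control gRNA, AKAP1 knock out or LARP4 knock out, with 2 replicates each. A further set without cycloheximide had 1 replicate, and its labels give no genotype or gRNA. It is called WT without cycloheximide below. The OMM ligase was expressed from the EF1α promoter in polyclonal lentiviral lines and the ER ligase from the SFFV promoter, whereas each knock out was 1 monoclonal line, so that the deleted gene and the properties of that clone cannot be told apart. The translation inhibitor cycloheximide was present in all ribosome profiling samples and, by the study's general protocol, in the RNA-seq samples other than those labeled as lacking it. The study calls the OMM footprint replicates biological, but the sources used here do not say whether the replicates came from separate cultures. The p-values therefore measure the spread between these samples only. AKAP1 is a scaffold protein of the OMM that binds RNA and protein kinase A, and LARP4 is a La-related protein that binds poly(A) tails.

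Fatty acid oxidation shortens acyl-CoA in the mitochondrial matrix, by repeated rounds of dehydrogenation, hydration, a further dehydrogenation and thiolysis, and passes the electrons to the respiratory chain. Long acyl chains enter as carnitine esters, made by CPT1A in the outer membrane and turned back into acyl-CoA by CPT2 on the inner membrane. All of these proteins are encoded in the nucleus and imported after or during their synthesis on cytosolic ribosomes, and most carry an N-terminal targeting sequence that is cleaved off on import. The enzymes are grouped below as the carnitine shuttle (CPT1A and CPT2), the acyl-CoA dehydrogenases (ACADVL for very long, ACADL for long and ACADM for medium chains, and ACADSB for short and branched chains), the trifunctional protein (HADHA, which holds the hydratase and dehydrogenase activities, and HADHB, which holds the thiolase) and the enzymes for shorter chains (HADH, a hydroxyacyl-CoA dehydrogenase, and ACAA2, a thiolase).

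The genes lie at the following GRCh38 positions in GENCODE 44. CPT1A lies at chr11:68754620-68844410 on the minus strand and encodes 773 residues, and CPT2 lies at chr1:53196792-53214197 on the plus strand and encodes 658. ACADVL lies at chr17:7217125-7225266, plus strand, with 655 residues, ACADL at chr2:210187126-210225447, minus strand, with 430, ACADM at chr1:75724431-75787575, plus strand, with 421, and ACADSB at chr10:123008979-123058290, plus strand, with 432. HADHA (chr2:26190635-26244672, minus strand, 763 residues) and HADHB (chr2:26243170-26290465, plus strand, 474 residues) lie head to head and their gene bodies overlap by 1503 nt. The sources used here do not state whether counting used strand, so reads within that overlap may have been given to either gene. HADH lies at chr4:107989714-108035241, plus strand, with 314 residues, and ACAA2 at chr18:49782164-49813953, minus strand, with 397. By length, 8 members encode more than 400 residues and 2, HADH and ACAA2, encode 400 or fewer.

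How the footprints were counted matters for these genes, and the coding sequences show why. The deposited CDS counts cover, for each gene, only the positions read as coding throughout all of its coding transcripts. Computed from GENCODE 44, that definition returned the deposited CDS length exactly for 5 members (ACADL, ACADVL, ACADSB, HADH and CPT2). For CPT2 the definition keeps 152 nt of the coding sequence of the canonical transcript, 7.69% of it and all within codons 1 to 51. For ACADVL it keeps 62 nt (3.15%, codons 1 to 21), for HADHA 109 nt (4.76%, codons 1 to 37) and for HADH 132 nt (14.0%, codons 1 to 44), although for HADHA the deposited length of 199 nt was shorter than the 336 nt this definition gives in GENCODE 44 with positions outside the canonical coding sequence included. By this definition the counts for these genes come from positions near the start codon and from positions of other isoforms. The first 162 bases of the canonical coding sequence are shown, 5′ to 3′ in the sense of the mRNA, for 4 genes in which the definition stops within them (GENCODE 44, GRCh38). Capitals mark the bases that count as CDS by that definition in GENCODE 44 and lower case marks the bases that do not, and for HADHA the deposited table may count other bases, since its length differs. They are read across splice junctions, so each spans a longer genomic interval: chr17:7219985-7220487 for ACADVL, chr2:26238952-26244596 for HADHA, chr4:107989933-108009788 for HADH and chr1:53196944-53200728 for CPT2.
CPT2: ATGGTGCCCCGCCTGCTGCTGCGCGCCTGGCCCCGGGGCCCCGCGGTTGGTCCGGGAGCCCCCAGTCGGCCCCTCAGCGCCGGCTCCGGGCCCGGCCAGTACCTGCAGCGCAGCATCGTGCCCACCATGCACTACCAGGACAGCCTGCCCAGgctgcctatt
ACADVL: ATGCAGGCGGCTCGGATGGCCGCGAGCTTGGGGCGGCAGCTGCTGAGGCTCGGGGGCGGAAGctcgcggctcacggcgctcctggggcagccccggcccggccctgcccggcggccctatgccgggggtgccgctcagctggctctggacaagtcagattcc
HADHA: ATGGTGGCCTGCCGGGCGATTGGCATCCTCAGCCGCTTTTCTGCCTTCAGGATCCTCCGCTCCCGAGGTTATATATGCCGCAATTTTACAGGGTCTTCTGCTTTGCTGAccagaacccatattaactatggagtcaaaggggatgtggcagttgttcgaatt
HADH: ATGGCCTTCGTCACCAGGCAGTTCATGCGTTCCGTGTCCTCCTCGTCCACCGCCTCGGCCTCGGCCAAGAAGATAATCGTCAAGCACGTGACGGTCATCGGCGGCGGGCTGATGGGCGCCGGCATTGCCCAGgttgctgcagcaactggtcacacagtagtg

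ACADM, whose sequence is not shown, was affected in the same way, with 115 nt counted against a canonical coding sequence of 1266 nt, of which the definition keeps 7 nt in codons 11 to 13. By contrast, the counted length was 1293 nt for ACADL, 1098 nt for ACADSB, 1005 nt for HADHB and 2264 nt for CPT1A. Each footprint result is therefore given first for the counted CDS and then over all exons of the gene, which restores the rest of the coding sequence and adds untranslated exons. A gene was tested where it had at least 64 footprints in every total input of the locations compared, and 5 members passed for the CDS (HADHA, HADHB, HADH, CPT1A and ACADSB) and 8 over all exons, all but ACADL and ACAA2.

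The total inputs of the ribosome profiling held 4485509 to 15820989 CDS footprints and the pulldowns 1025114 (OMM, replicate 1) to 19539527. The RNA-seq libraries held 38347615 to 100840544 counts in total inputs and 48094925 to 63646523 in pulldowns. In the total inputs AKAP1 stood at 32.2 and 20.3 CPM (counts per 1000000 counts in the library, used for footprints too) in its knock out against 114.5 and 119.5 in WT, a fold of 0.225 that missed the threshold (log2 −2.15 ± 0.22 SE, edgeR adjusted p = 0.242), and LARP4 stood at 79.3 and 74.0 in its knock out against 225.0 and 231.3 (fold 0.340, edgeR adjusted p = 0.0405). Of the markers used to check the cell line, PAX2, EYA1, LHX1, NEFM and LIN28B were each detected in all 7 total inputs, from 46 (LHX1) to 19991 (LIN28B) counts, while ALB, APOA1, CKM and PTPRC, markers of liver, muscle and blood, had between 0 and 17.

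The level of each enzyme in the cells, before any pulldown, was read from the total inputs (mean ± SD, n = 6). For footprints these pool the OMM, ER and cytosol ligase lines. For mRNA they pool WT, AKAP1 knock out and LARP4 knock out, without the input that lacked cycloheximide. The SD therefore mixes lines or genotypes with replicates. In footprints over all exons, per kilobase of canonical coding sequence and per 1000000, HADH (164 ± 37.5) and ACADM (156 ± 20.3) led and were within their spread of each other. HADHB (92.4 ± 10.4) and HADHA (62.7 ± 8.97), the subunits of 1 complex, followed, then ACADSB (43.8 ± 9.02). CPT2 (27.1 ± 5.54), ACADVL (19.6 ± 16.5) and CPT1A (14.7 ± 5.36) overlapped, and ACADL (2.64 ± 1.14) was lowest. The counted exons were far longer than the coding sequence used as divisor for HADH (11914 against 945 nt) and ACADM (10404 against 1266 nt). For HADHA they were little longer (2374 against 2292 nt), and the effect on this order was not tested. The SD of ACADVL came largely from 1 total input: cytosol replicate 2 held 104.2 CPM of ACADVL over all exons, against 19.9 to 30.3 in the other 5. In mRNA, as counts per kilobase of deposited gene length and per 1000000, HADHA was highest (43.6 ± 6.45), then HADHB (23.8 ± 1.86), ACADSB (11.9 ± 0.898), ACADM (9.96 ± 0.616), ACAA2 (9.62 ± 0.459), HADH (7.48 ± 0.657), ACADVL (5.50 ± 0.787), CPT1A (5.04 ± 1.11) and CPT2 (3.93 ± 0.573), with ACADL again lowest (0.354 ± 0.145). ACADM and ACAA2, ACADVL and CPT1A, and CPT1A and CPT2 were neighbours that overlapped within 1 SD. The middle of this mRNA order depended on the length used: per kilobase of the canonical transcript, HADHA (64.2), ACADM (60.7), HADH (53.4) and HADHB (50.9) were the upper 4 and ACADL stayed lowest at 0.725.

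Which of these proteins are made at the OMM was asked by comparing the OMM pulldown with its total input. HADHB, ACADVL, HADHA and CPT2 were clearly enriched over all exons and CPT1A weakly. HADH was called lower, at a value near the median of all genes, and ACADM and ACADSB did not pass the test. On the counted CDS, 3 of 5 members were higher in the pulldown (17% of 6742 genes tested were higher), none was lower (46% of genes were lower) and 2 did not pass. Over all exons, 5 of 8 were higher (16.5% of 8440 genes), 1 was lower (49% of genes) and 2 did not pass. The median log2 enrichment over all exons was 1.16 for the members and −0.38 for all genes tested. Library totals set the scale, and scaling by TMM, which moves the median of all genes from −0.38 to near 0, changed the share of called genes that were higher from 25.1% to 51.6% over all exons (58.2% in DESeq2) and from 27% to 55.2% on the CDS (58.5% in DESeq2). The CDS count was 1 without OMM replicate 2. Under TMM over all exons 7 of 8 members were higher, with ACADM and ACADSB added, and HADH (log2 −0.21) was no longer called.

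The trifunctional protein gave the highest footprint densities in the OMM pulldowns. HADHB went from 129 CPM over all exons in the total input to 828 in the pulldown in replicate 1, and from 152 to 985 in replicate 2. This was a 6.43-fold enrichment (log2 2.68 ± 0.09 SE, edgeR adjusted p = 5.92e-13), and on the counted CDS, which for this gene is most of the coding sequence, it was the same size (6.48-fold, edgeR adjusted p = 5.33e-12). HADHA went from 141 to 482 in replicate 1 and from 150 to 626 in replicate 2. Its enrichment over all exons was 3.79-fold (log2 1.92 ± 0.09, edgeR adjusted p = 4.51e-11), and on its short counted CDS it was log2 0.67 ± 0.18 (edgeR adjusted p = 0.00381). In neither gene did pulldown and total input values overlap.

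ACADVL, which starts the oxidation of the longest chains at the inner membrane, went from 30.3 to 175 CPM over all exons in replicate 1 and from 27.3 to 191 in replicate 2, a 6.38-fold enrichment (log2 2.67 ± 0.11, edgeR adjusted p = 1.02e-11). CPT2 went from 64.5 to 240 and from 60.5 to 191 (3.41-fold, edgeR adjusted p = 5.63e-10). CPT1A, an outer membrane protein, gained least among the enriched members, from 33.4 to 40.9 and from 29.0 to 48.3 (1.47-fold, edgeR adjusted p = 0.00272), with log2 values of 0.30 and 0.74 in the replicates, and its call was lost without OMM replicate 2 (log2 0.29, edgeR adjusted p = 0.272). HADH, the shorter matrix dehydrogenase, went from 149 to 109 and from 153 to 99.2 (0.686-fold, log2 −0.54, edgeR adjusted p = 0.000185). That value was near the median of all genes (−0.38). On the counted CDS HADH did not pass (log2 0.0026, edgeR adjusted p = 0.989). The medium chain dehydrogenase ACADM had log2 enrichments of 0.12 and 0.13 (edgeR adjusted p = 0.262) and ACADSB of 0.27 and 0.24 (edgeR adjusted p = 0.0611). ACADL could not be tested, since its total inputs held 19 and 26 footprints, and its log2 values of −0.16 and 0.51 lay on both sides of 0. Among other nuclear-encoded mitochondrial genes of over 400 residues, 159 of 298 (53.4%) were higher over all exons with a median of 0.45, so the median of the members was above that of genes of like length, which was not tested.

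**Figure D1:**
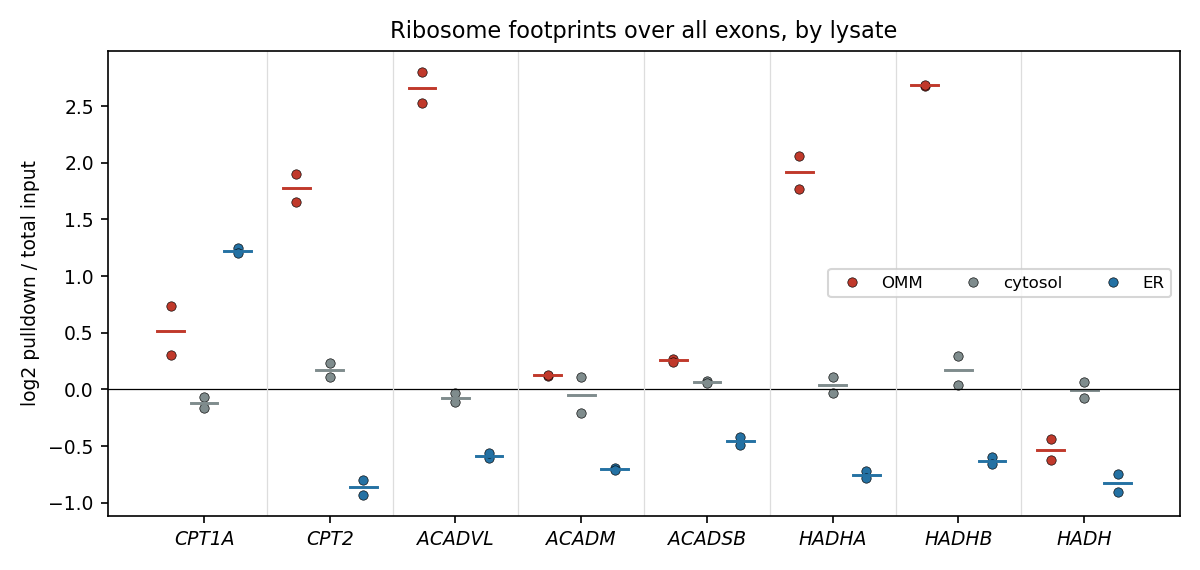
Log2 enrichment of footprints over all exons (pulldown over total input, each as CPM) for 8 members with ribosomes labeled at the OMM, in the cytosol and at the ER; points are lysates and lines are means of 2. HADHB, ACADVL, HADHA and CPT2 lie between 1.65 and 2.80 at the OMM, close to 0 in the cytosol and below 0 at the ER, and CPT1A lies above 1 at the ER in both lysates.

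At the ER CPT1A was the 1 member that was higher with library totals as scale. With the ER ligase it went from 24.0 to 56.9 CPM over all exons in replicate 1 and from 31.9 to 73.6 in replicate 2, a 2.34-fold enrichment over all exons (edgeR adjusted p = 1.08e-08) and 2.22-fold on the CDS (edgeR adjusted p = 9.41e-08). On the CDS, 1 of 5 members was higher (19.9% of 7390 genes) and 3 were lower (72.1% of genes). Over all exons, 1 of 8 was higher (20.9% of 9004 genes) and the other 7 were lower (72% of genes), with log2 values of −0.46 for ACADSB, −0.59 for ACADVL, −0.63 for HADHB, −0.70 for ACADM, −0.75 for HADHA, −0.83 for HADH and −0.86 for CPT2. The median of the members was −0.67 and that of all genes −0.65. On the CDS, HADHA was called higher too under TMM (log2 0.60) and in DESeq2 (0.57). Under TMM the share of called genes that were higher went from 22.5% to 55.0% over all exons (56.6% in DESeq2) and from 21.6% to 54.9% on the CDS (56.7% in DESeq2), and over all exons 2 members were lower and CPT1A was higher, with ACADSB at 0.16 and ACADVL at 0.03, so that the direction of members other than CPT1A at the ER was not fixed across scalings.

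In the cytosol, where the ligase is not held at a membrane, none of the members passed the test against the input. No member was called on the CDS, of 5 tested (2.02% of 7173 genes were higher and 5.95% lower), or over all exons, of 8 tested (3.56% of 8983 genes were higher and 6.9% lower). None of the 8 had an unadjusted p below 0.05 in edgeR over all exons either. The log2 values over all exons ran from −0.20 (ACADM, replicate 1) to 0.30 (HADHB, replicate 2), with a median over the members of 0.02, and the fitted values were −0.12 for CPT1A, 0.18 for CPT2, −0.07 for ACADVL, −0.05 for ACADM, 0.07 for ACADSB, 0.04 for HADHA, 0.16 for HADHB and −0.0045 for HADH. On the CDS, 2 members were called without cytosol replicate 1 and 1 without cytosol replicate 2.

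The difference of enrichments was then tested directly. Against the cytosol, the OMM enrichment over all exons was higher for 5 of 8 members (15.8% of 8264 genes), by log2 2.74 for ACADVL, 2.52 for HADHB, 1.88 for HADHA, 1.59 for CPT2 and 0.67 for CPT1A, and lower for 1, HADH, by −0.54 (42% of genes were lower). ACADM and ACADSB differed by 0.18 each (edgeR adjusted p = 0.255 and 0.299). Without OMM replicate 2 the calls of CPT1A (edgeR adjusted p = 0.177) and HADH (edgeR adjusted p = 0.0714) were lost, and under TMM and DESeq2 7 members were higher, ACADM and ACADSB included, and HADH was not called. On the CDS, HADHB (2.59) and CPT1A (0.76) were higher, 2 of 5 members (16.5% of 6482 genes), and none was lower (39.8% of genes), while the count was 4 without cytosol replicate 1 and 1 without OMM replicate 2, and under TMM and DESeq2 all 5 members were higher. Against the ER, over all exons 6 of 8 members were higher at the OMM (30% of 8404 genes), HADHB by 3.31, ACADVL by 3.26, HADHA by 2.68, CPT2 by 2.63, ACADM by 0.83 and ACADSB by 0.71. CPT1A was the 1 lower member, by −0.67 (20.9% of genes), and HADH differed by 0.28 (edgeR adjusted p = 0.0866). The CPT1A call was lost without OMM replicate 1 (log2 −0.49, edgeR adjusted p = 0.0633). On the CDS all 5 members differed, 4 higher at the OMM (31.1% of 6691 genes) and CPT1A lower (18.6% of genes), and the count fell to 2 without ER replicate 1 and to 3 without ER replicate 2, OMM replicate 1 or OMM replicate 2. TMM moved the share of called genes that were higher from 29.3% to 57.7% (CDS) and from 27.4% to 53.7% (all exons) against the cytosol, with 59.5% and 58.4% in DESeq2, and from 62.6% to 42.6% (CDS) and from 58.9% to 37.9% (all exons) against the ER, with 40.1% and 40.5% in DESeq2.

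Position within the coding sequence was described by splitting each gene into the counted CDS and the rest of its exons, less the positions deposited as untranslated. This split has no test. At the OMM, HADHA had log2 enrichments of 0.52 and 0.79 in the counted CDS (229 and 228 footprints in the total inputs, 66 and 181 in the pulldowns) and of 1.96 and 2.22 in the rest (915 and 1070, 718 and 2315), a difference of 1.45 in both replicates. ACADVL differed by 2.22 and 2.52 in the same direction, from 17 and 23 footprints in the counted CDS of the total inputs, few enough that the values are loose, and CPT2 by 1.28 and 0.34. The CPT2 values also rest on few footprints (43 and 30 in the counted CDS of the total inputs). In these 3 members the counted CDS was thus less enriched than the rest, but it holds positions of other isoforms beside the capitals shown above, so the split is not one of the start against the remainder of the protein. ACADM, with 17 and 9 footprints in the counted CDS of the total inputs and 2 and 0 in the pulldowns, gave 0.62 and 3.36. HADH went the other way, with −0.83 and −0.70. Among 2508 genes with the minimum in both regions, the median of this difference, averaged over the replicates, was −0.01. The 5th and 95th percentiles were −0.96 and 0.98. The mean of HADHA (1.45) lay above the upper one and that of HADH (−0.77) lay within the range. ACADVL, CPT2 and ACADM lacked the minimum in the counted CDS, so a range from genes that had it cannot place them. At the ER the difference was negative for HADHA (−0.89 and −1.10), CPT2 (−1.28 and −0.37) and HADH (−0.53 and −0.32), and positive for ACADVL (0.31 and 0.53). In the cytosol, ACADVL again had a positive difference (2.78 and 1.47), so for this gene it was seen without a membrane ligase too, whereas HADHA (−0.63 and −0.06) and CPT2 (−0.45 and −0.77) did not. Isoform use can differ between the regions compared, and their part in these differences was not tested.

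**Figure D2:**
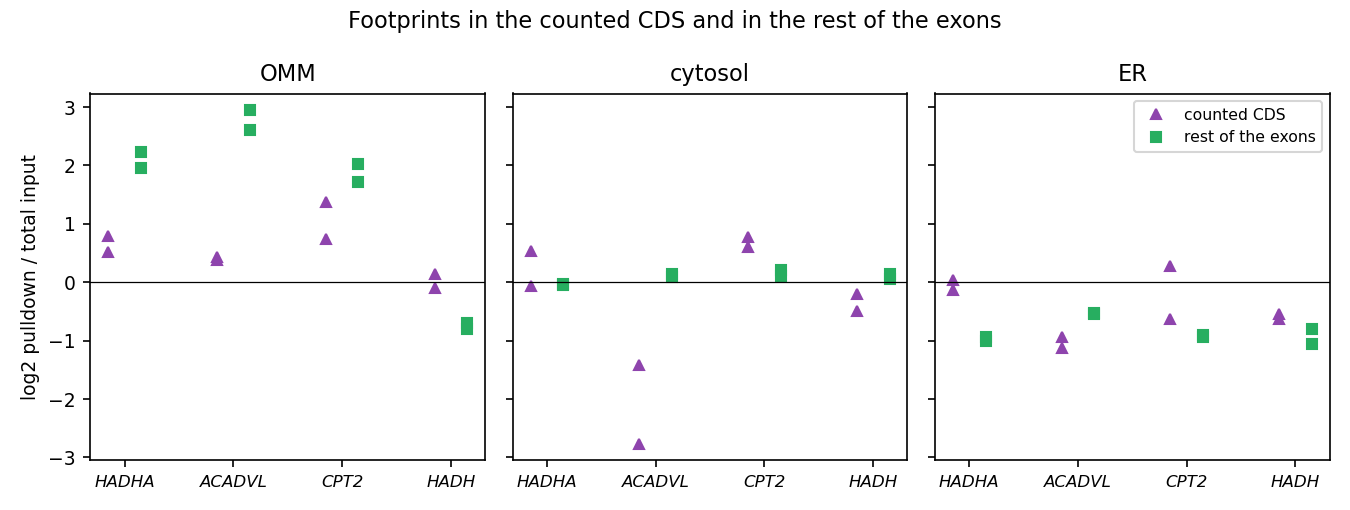
Log2 enrichment (pulldown over total input, y axis) in the counted CDS (triangles) and in the rest of the exons less the untranslated positions (squares). The genes are HADHA, ACADVL, CPT2 and HADH at the 3 locations, with 1 marker of each kind for each lysate. At the OMM the squares of HADHA, ACADVL and CPT2 lie above the triangles and those of HADH lie below.

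Intact mRNA pulled down at the OMM covers all 10 members, ACAA2 and ACADL included, and reads each transcript as a whole. In WT cells 5 of 10 members were higher in the pulldown (20.2% of 13856 genes), 2 were lower (45.6% of genes) and 3 did not pass. HADHB (4.33-fold, from 105 to 404 and from 90.0 to 440 CPM, edgeR adjusted p = 1.97e-05) and ACADVL (4.17-fold, from 32.4 to 128 and from 20.9 to 92.4, edgeR adjusted p = 8.46e-06) again led. CPT2 (2.66-fold) and HADHA (2.09-fold) followed, and ACAA2 was slightly higher (1.24-fold, edgeR adjusted p = 0.0114). ACADSB (0.715-fold) and HADH (0.806-fold) were lower, and CPT1A, ACADM and ACADL, at log2 −0.23, 0.22 and 0.08, did not pass. The order was thus close to that of the footprints over all exons, with the 4 members highest there also highest here. The median was 0.27 for the members, −0.28 for all genes and 0.22 for the 355 other mitochondrial genes of over 400 residues, of which 164 (46.2%) were higher. TMM moved the share of called genes that were higher from 30.7% to 52.8% (52.2% in DESeq2) and left 6 members higher and none lower. The calls of ACAA2 and HADH were lost when either WT replicate was left out.

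**Figure D3:**
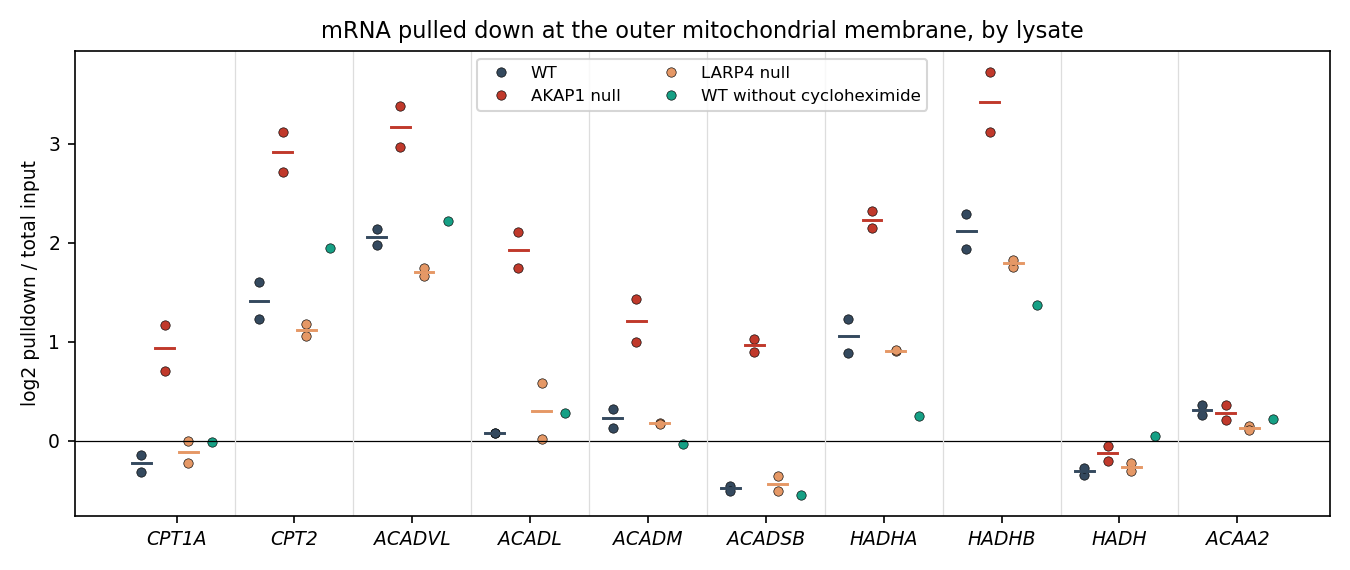
Log2 enrichment of intact mRNA at the OMM (pulldown over total input, each as CPM) for the 10 members in WT, AKAP1 knock out, LARP4 knock out and WT without cycloheximide; points are lysates. In 8 members the AKAP1 knock out points lie above both WT points, in HADH they do too by a smaller distance, and in ACAA2 the groups overlap.

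The AKAP1 knock out addressed whether this OMM protein is needed for the mRNAs to be pulled down there. For 8 of the 10 enzymes the enrichment of the mRNA, scaled by library totals, was called higher in the knock out than in WT. For none was it called lower. In the knock out itself, 9 of 10 members were higher in the pulldown than in the input (13.9% of 13856 genes), none was lower (28.1% of genes), and the median of the members was 1.58 against −0.12 for all genes. HADHB reached 10.7-fold (from 104.2 to 904 CPM in replicate 1 and from 103 to 1367 in replicate 2), ACADVL 9.01-fold, CPT2 7.55-fold and HADHA 4.70-fold. The 1 member that did not pass was HADH (log2 −0.13 ± 0.09, edgeR adjusted p = 0.259). The ACAA2 call (1.22-fold) was lost when either knock out replicate was left out. Without pairing of pulldown and input by lysate, ACAA2 (edgeR adjusted p = 0.0962) and CPT1A (edgeR adjusted p = 0.0658) were not called. TMM moved the share of called genes that were higher from 33.2% to 49.2% (52.9% in DESeq2).

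In the direct test of knock out against WT enrichment, 8 of 10 members were higher (6.52% of 13856 genes), none was lower (7.96% of genes) and 2 did not pass, with a median of 1.17 against 0.19 for all genes. Within the carnitine shuttle, CPT2 gained log2 1.5 ± 0.18 (SE; 2.83-fold, edgeR adjusted p = 0.00123), from lysate values of 1.23 and 1.6 in WT to 2.71 and 3.12. CPT1A, near or below its input in WT (−0.32 and −0.15), was above it in the knock out (0.70 and 1.17), a gain of 1.17 ± 0.18 (2.25-fold, edgeR adjusted p = 0.00378). In both genes the groups were apart by more than the distance between replicates.

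All 4 acyl-CoA dehydrogenases gained. ACADL, the scarcest mRNA with 49 to 84 counts in these total inputs, went from 0.08 and 0.07 to 1.75 and 2.1, the largest difference of the 10 with the widest error (1.87 ± 0.33, edgeR adjusted p = 0.00786). ACADSB changed side, from −0.45 and −0.51 in WT to 0.89 and 1.03 (1.45 ± 0.12, 2.73-fold, edgeR adjusted p = 0.000403). ACADVL (1.98 and 2.14 to 2.97 and 3.38) gained 1.11 ± 0.16 and ACADM (0.13 and 0.32 to 1.00 and 1.43) gained 0.99 ± 0.16, with edgeR adjusted p of 0.00277 and 0.00574. ACADL, ACADSB, ACADM and CPT1A, none of them called higher in WT, thus gained 0.99 to 1.87.

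Both subunits of the trifunctional protein gained by like amounts, HADHB by 1.31 ± 0.21 (2.48-fold, edgeR adjusted p = 0.00495) and HADHA by 1.17 ± 0.15 (2.25-fold, edgeR adjusted p = 0.00159). HADH went from −0.34 and −0.28 to −0.05 and −0.20 (0.18 ± 0.12, edgeR adjusted p = 0.316) and ACAA2 from 0.26 and 0.36 to 0.20 and 0.36 (−0.03 ± 0.12, edgeR adjusted p = 0.881). These 2 are the members of 400 residues or fewer. In the length classes of the other mitochondrial genes, 200 of 355 over 400 residues were higher (56.3%, median 0.70, quartiles 0.31 and 1.16), 40 of 399 above 200 and up to 400 residues were higher and 52 lower (10.03% and 13.03%, median 0.00), and of 255 with up to 200 residues none was higher and 167 were lower (65.5%, median −0.87). Under TMM and under DESeq2 8 members were higher as well, while the share of called genes that were higher went from 45.0% to 16.7% and 21.3%. The count rested on single libraries: without WT replicate 1 it was 3, with ACADVL, CPT1A, ACADL, ACADM and HADHB no longer called, and without AKAP1 knock out replicate 2 it was 5, with ACADL, ACADM and HADHB no longer called.

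**Figure D4:**
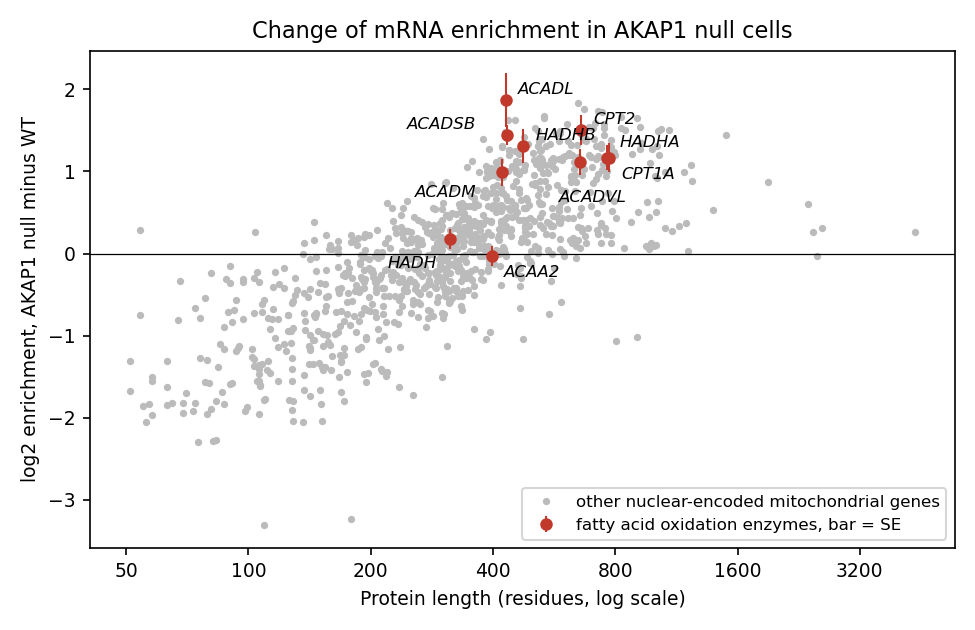
Difference in log2 mRNA enrichment between AKAP1 knock out and WT (y axis) against protein length in residues (x axis, log scale), with the 10 members in red with their SE and other nuclear-encoded mitochondrial genes in grey. The 8 members over 400 residues lie between 0.99 and 1.87 and HADH and ACAA2 lie at 0.18 and −0.03.

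The mRNA levels themselves gave no called difference. In the total inputs of the AKAP1 knock out against WT, none of the 10 members was called in either direction (0% of 13977 genes higher and 0% lower), and the median difference was −0.05. Over all genes edgeR gave 489 at an unadjusted p below 0.05, and DESeq2 called 15 genes, no member among them. HADHB, for example, was at 104.2 and 103.3 CPM in the knock out and at 105 and 90.0 in WT. The differences ran from log2 −0.46 ± 0.37 SE for ACADL, the scarcest mRNA, to 0.12 ± 0.12 for ACADSB. AKAP1 itself was not called by this test (log2 −2.15, edgeR adjusted p = 0.242), so members not called are not shown to be unchanged.

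The LARP4 knock out asked the same question of an RNA-binding protein. In its pulldown 4 of 10 members were higher than in the input (22.8% of 13856 genes), HADHB (3.46-fold), ACADVL (3.26-fold), CPT2 (2.17-fold) and HADHA (1.88-fold), and 2 were lower (30% of genes), ACADSB (0.740-fold) and HADH (0.833-fold). Against WT, no member was called higher or lower (0% and 0% of 13856 genes), and the differences ran from −0.36 ± 0.16 for ACADVL (edgeR adjusted p = 0.299) to 0.22 ± 0.32 for ACADL (edgeR adjusted p = 0.679), with HADHB at −0.32, CPT2 at −0.29, ACAA2 at −0.18, HADHA at −0.15, ACADM at −0.05, ACADSB and HADH at 0.05 and CPT1A at 0.12. At an unadjusted p below 0.05 edgeR gave 2270 genes, and DESeq2 called 495 genes, with 0 members. The median of the members was −0.10 and that of all genes 0.17, a shift that TMM brought to −0.04. Without LARP4 knock out replicate 1, 1 member was called, ACADVL at −0.39 (edgeR adjusted p = 0.0357). The comparison shares its WT libraries with that of the AKAP1 knock out, so they are not independent. In the total inputs none of the 10 members was called (0.00715% of 13977 genes higher and 0.00715% lower), with edgeR giving 509 genes at an unadjusted p below 0.05 and DESeq2 calling 28.

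Without cycloheximide there was 1 lysate, so its values have no replicate check, and the light pulse was also shorter. Its labels do not say that the cells carried the control gRNA of the WT lysates. The carnitine enzymes and ACADVL lay above both WT values, with 1.94 for CPT2 (1.23 and 1.6 with the inhibitor), −0.01 for CPT1A (−0.32 and −0.15) and 2.22 for ACADVL (1.98 and 2.14). Both subunits of the trifunctional protein were below both WT values, HADHB at 1.37 (1.94 and 2.29) and HADHA at 0.25 (0.89 and 1.23). HADHA thus lay closer to its input than in either WT lysate, with 29694 counts in the total input behind it. HADH (0.05) and ACADL (0.28) lay above both WT values, and ACADM (−0.04), ACADSB (−0.55) and ACAA2 (0.22) below. In all, 5 members were below and 5 above both, whereas of 13856 genes 27.1% were below and 59.5% above, with a median of −0.11 against −0.27 and −0.31.

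Other genes of the pathway, 49 in 7 lists, were treated in the same way. At the OMM over all exons, 12 of 35 tested were higher and 7 lower (16.5% and 49% of all genes). Among other enzymes of β-oxidation 6 of 8 were higher and none lower, including ACAT1, the acetoacetyl-CoA thiolase of the matrix (log2 2.31), ACOT9 (0.85) and ECI2 (0.70), and of the electron transfer flavoproteins, which take electrons from the acyl-CoA dehydrogenases, both tested were higher, ETFDH by 3.27 and ETFA by 0.20. Of the other acyl-CoA dehydrogenases 1 of 5 was higher (ACAD9, 0.73) and 1 lower (GCDH, −0.47), and in the carnitine system 1 of 4 was higher (CRAT, carnitine acetyltransferase, 1.81). Acyl-CoA synthetases gave 1 higher (ACSF3, 1.03) and 2 lower (ACSL4, −1.07, and ACSL3, −0.28) of 6, peroxisomal β-oxidation 1 higher (ABCD3, a peroxisomal transporter, 1.10) and 3 lower of 6, and the regulators 0 higher and 1 lower (PPARGC1B, −0.68) of 4. Under the AKAP1 knock out against WT 13 of 47 were higher and 4 lower (6.52% and 7.96% of all genes). The 4 acyl-CoA synthetases that were higher, of 8, included ACSF2 (1.23) and ACSL1 (1.17). The 3 acyl-CoA dehydrogenases, of 7, were ACAD10 (0.99), ACAD9 (0.95) and IVD (0.56). Among other enzymes of β-oxidation 2 of 8 were higher, ACAT1 (1.48) by the most, and 3 were lower. Peroxisomal β-oxidation had 2 of 9 higher, with ABCD3 (1.45) first. The flavoproteins had 1 of 3 higher (ETFDH, 1.20), and the carnitine system 1 of 4 higher (CRAT, 1.20) and 1 lower. CPT1C (−1.06), the neuronal paralog of CPT1A, and ECI2 (−0.95) were lower, and none of 8 regulators was called. Against WT in the LARP4 knock out none of 47 was called.

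HADHA and HADHB, whose products form 1 complex, were compared over the 13 lysates (6 of footprints and 7 of RNA) as a description, since lysates share lines and pulldowns. Over all exons their log2 enrichments had r = 0.98, which placed HADHB at rank 5 of 8203 genes for HADHA and HADHA at rank 25 for HADHB. With the counted CDS in place of all exons, which for HADHA is 199 nt, r was 0.83 and the ranks were 74 and 136 of 6424. Reads in the overlap of both gene bodies may have been given to either gene, and their part in r was not tested. Among the genes most like HADHA were ALDH5A1 (r = 0.99), CRAT (0.99) and NLN (0.98) over all exons and GHITM (0.96) and YARS2 (0.96) on the CDS. Those most like HADHB were PMPCB, DLD and AIFM1 over all exons, with r from 0.9945 to 0.9953, and OXCT1, SUCLG2 and ALDH1B1 (0.99 each) on the CDS.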

How the data were processed

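Ribosome profiling was made from 12 libraries and RNA-seq from 14, all of HEK293T cells. Per the study's methods, footprints were freed of rRNA and tRNA reads with Bowtie and uniquely aligned to GRCh38, and the authors deposited for each gene estimated counts (read centers spread over positions, so not whole) and RPKM over the exons and the CDS, where the CDS is limited to positions coding in all transcripts. The RPKM values were used only to recover the authors' denominator, all reads on annotated transcripts, as another scale. For RNA-seq the authors deposited counts per gene and values named FPKM that are 10 times FPKM, treated as a score and not used. The labels call this RNA polyA RNA, while the methods name a kit that depletes rRNA. Strand use in counting is not given in the sources used here.

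Here estimated counts were rounded and tested with edgeR 4.0.16 (quasi-likelihood, two-sided, Benjamini-Hochberg over all genes tested, called at adjusted p below 0.05), with a term per lysate, because the study pairs each pulldown with the total input of its lysate, and library totals as scale. The 12 ribosome profiling libraries were 1 fit and the 12 RNA-seq libraries with cycloheximide another. Ribosome profiling genes needed 64 counts in every total input compared and RNA-seq genes a mean of 64. Total inputs were compared with TMM scaling and no term per lysate. Enrichment per lysate is log2 of pulldown over total input, each as CPM (counts per 1000000), with 0.5 counts added. SE is that of the fit. DESeq2 1.42.0, TMM, other minimums, other scales, no term per lysate and leaving out each lysate were tried. The fits were tested on simulated data with an assumed spread. Seeded changes of log2 1 were recovered in 22% of genes at the OMM, 13% in OMM minus cytosol and 42% in AKAP1 knock out minus WT. Changes of log2 2 were recovered in 94%, 66% and 99%. A member that did not pass is therefore not shown to be unchanged. Gene positions, coding sequences and protein lengths came from GENCODE 44, whose gene ends match those of all 10 members in the RNA-seq tables. Broken lines, 3 to 7 in each RNA-seq file, were left out. Figures were drawn with matplotlib 3.10.9.

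The members, lists and tests were chosen with earlier results of these data known. The rule for named genes takes all 10 members, the less central ones by counts and ranges, and of the other pathway genes those called at the OMM or in AKAP1 knock out minus WT, at most 3 per list by size of change. Some genes that this rule names are not reported here. Analyses over all exons as a second measure, with their alternatives, were added after seeing the data. Same-numbered total inputs of different genotypes had deviations correlated at r = 0.21 and 0.34 over 13977 genes, and the labels do not say that a number marks a shared day. The SE of the fit covers the spread between these lysates as well as counting error.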

Additional observations from a re-analysis of the deposited data

Results flagged for a closer look

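The values below are differences of log2 enrichment for which the test of the difference itself passed in edgeR (adjusted p below 0.05, 2 lysates a group). Between ribosomes labeled at the OMM and in the cytosol, on the counted CDS, HADHB differed by 2.59 and CPT1A by 0.76. Over all exons ACADVL differed by 2.74, HADHB by 2.52, HADHA by 1.88, CPT2 by 1.59, CPT1A by 0.67 and HADH by −0.54.

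Between the OMM and the ER, on the counted CDS, HADHB differed by 3.39, ACADSB by 1.12, HADHA by 0.73, HADH by 0.59 and CPT1A by −0.58. Over all exons HADHB differed by 3.31, ACADVL by 3.26, HADHA by 2.68, CPT2 by 2.63, ACADM by 0.83, ACADSB by 0.71 and CPT1A by −0.67. CPT1A was the 1 member with a negative difference in both.

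Between the AKAP1 knock out and WT, ACADL differed by 1.87, CPT2 by 1.5, ACADSB by 1.45, HADHB by 1.31, HADHA by 1.17, CPT1A by 1.17, ACADVL by 1.11 and ACADM by 0.99. No group had enough samples for a check of single outlying samples.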

How the results depend on the processing

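Of 1211 member values under another setting, 1080 kept their side of the threshold, with the same direction where they were called. A further 90 lost the call, 31 gained it, and 9 changed direction with a call before or after. The last 1, ACADL without cycloheximide with 5 counts added, moved. Values called in neither setting were not compared for direction. The 9 changes of direction included HADHA (0.57 in DESeq2, 0.60 in TMM) and HADH (0.041 and 0.073) at the ER on the CDS. Over all exons at the ER they were ACADSB (0.13 and 0.16) and ACADVL (0.029, TMM). HADH changed over all exons in place of the CDS, at the OMM (−0.54) and against the cytosol (−0.54).

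Counts of members called that moved by over 1.5 times were as follows. With DESeq2 and with TMM, 2 in place of 4 were called at the ER, 5 in place of 2 in OMM minus cytosol and 3 in place of 5 in OMM minus ER, and over all exons at the ER 1 and 3 in place of 8. Counting all exons in place of the CDS gave 8 at the ER, 6 at the OMM and 6 in OMM minus cytosol. With 4 times the minimum, 1, 1 and 3 were called at the OMM, in OMM minus cytosol and in OMM minus ER. Scaling by the RPKM denominator gave 2 in the cytosol in place of 0 and 3 in OMM minus ER, and a minimum of 10 or no minimum gave 1 in the cytosol. Without the replicate block, the term that pairs a pulldown with its total input, 1 was called at the OMM, in OMM minus cytosol and in OMM minus ER on the CDS, 3 in both differences over all exons, and 5 in place of 8 in AKAP1 knock out minus WT. In the total inputs, the replicate block left 0 members called and so changed no call.

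Leaving out 1 lysate gave 1 to 3 members at the OMM, 1 to 2 in the cytosol, 1 to 4 in OMM minus cytosol, 2 to 3 in OMM minus ER, 3 to 8 in AKAP1 knock out minus WT and 0 to 1 in LARP4 knock out minus WT. The lone lysate left is assumed to vary like the other groups. Shallow OMM pulldowns, ACADL counts and short counted CDS limit precision, and the causes of these changes were not tested.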
